A study of Caenorhabditis elegans with 6 samples.

Results

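Histone genes were read from the deposited gene table of whole N2 worms as every row whose symbol is his or hil followed by a number, which gave 80 of 20473 genes. By the deposited annotation, 9 of them encode linker histone H1, 17 H2A, 17 H2B, 16 H3, 5 proteins of the H3.3 type and 16 H4. N2 is the standard laboratory wild type of the nematode Caenorhabditis elegans. Diquat is a bipyridyl herbicide that cycles between redox states in cells. The 3 diquat libraries came from worms kept in 100 µg/L diquat dibromide monohydrate for 72 h at 20 °C, and the 3 control libraries from worms kept at 0 µg/L for the same time and temperature. The comparison asks how the transcriptome of the worm differs after exposure to the herbicide. No source used here states the worms' stage. Nothing in the labels says that the replicates were separate cultures, so the p-values measure the spread between these libraries, which may be technical.

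DNA in the nucleus is wound around an octamer of the core histones H2A, H2B, H3 and H4, and linker histone H1 binds where the DNA enters and leaves this particle. Most core histone is made while DNA is copied, from many near-identical genes without introns, whose messengers in animals usually end in a stem-loop instead of a poly(A) tail. Replacement histones such as H3.3 are also laid down outside replication, and their messengers carry a poly(A) tail. RNA for these libraries was taken up on oligo(dT) beads, and poly(A) tails were not measured. A lower level here can be fewer cells of a type, less RNA per cell or less capture of a messenger without a tail, and these cannot be told apart.

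Counts per library were estimated counts, and their totals lay between 23390547 and 24593469. Over the whole table, edgeR's quasi-likelihood test called 121 of 13252 tested genes lower with diquat at an adjusted p under 0.05, and 0 higher. Without adjustment, 204 genes had an edgeR p under 0.05 on the higher side, and DESeq2 called 2 higher. Of 42 sperm markers, 38 were tested and 25 were called lower, with a median log2 fold change of -1.31. The highest was 0.71 for gsp-4, which was not called. The list holds every gene named msp and a number, and how far their reads can be told apart was not examined. The summed level of the 42 markers ran from 109.5 to 176.1 CPM (counts scaled to a common library size) in the diquat libraries and from 315.8 to 374.1 CPM in the control libraries. The markers of germline (15 tested), oocyte and egg (13), embryo (8), intestine (7), body wall muscle (6) and neuron (6) had 0 calls by edgeR or DESeq2, and at an unadjusted p under 0.05 edgeR had 1 muscle marker lower. With the replicate number as a term in edgeR, mes-3 (germline), chs-1 (oocyte and egg) and vit-5 (intestine) were called higher, and act-5 (intestine) and 4 of 6 muscle markers lower. Some of these calls depended on the setting. When the trend with gene length was removed as well, mes-3 and chs-1 stayed higher, and him-3 and syp-2 (germline) were called higher too. vit-5 was then not called (edgeR adjusted p 0.428), and vit-2 (intestine) was called lower.

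The rows of the core histones first had to be sorted by what the counts can tell apart. Of the 80 genes, 25 fell into 10 groups whose members had equal counts in all 6 libraries, and their deposited FPKM (fragments per kilobase of gene, scaled to library depth) were equal too. Their reads cannot be assigned to one copy. The largest groups were the H2A genes his-19, his-21, his-51 and his-53 and the H2B genes his-20, his-22, his-52 and his-54. All 25 were low, with mean counts of at most 10.33 per gene. Another 4 genes, the H3 genes his-9 and his-13, the H2B gene his-39 and the H2A gene his-47, had 0 counts in every library, where 3 counts is the floor that a 0 allows in 1 library. Together 61 different rows above 0 remained. Of the equal rows, his-12 and his-43 alone were abundant enough to test, and they are 1 measurement. Of the 94 values in the whole table with a count of 0 beside an FPKM above 0, 20 were in histone rows.

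Some rows that were not equal also mirrored each other. The H2A gene his-16 on chromosome II had 19 counts in control replicate 1 and 0 in the other 5 libraries. In that library alone the equal pair his-12 and his-43, H2A genes of the same cluster, each had 0 counts, against 13, 12 and 8 counts in the diquat libraries and 6 and 21 counts in the other control libraries. The 3 rows together had 26, 24 and 16 counts with diquat, against 19, 12 and 42 counts in controls, so the 0 of the pair has no counterpart in the sum. The H2B gene his-66 had 142, 124 and 67 counts with diquat, against 57, 123 and 113 counts in controls, a coefficient of variation of 36.3% over the 6 libraries where counting error gives 9.79%. The 4 rows annotated with the same H2B protein, his-48, his-58, his-62 and his-66, summed to 503, 437 and 413 counts with diquat, against 451, 400 and 429 counts in controls, and the coefficient of variation of the sum was 9.71%, against 4.77% from counting error. A sum of rows that vary on their own also spreads less, so the smaller value does not show an exchange of reads. In control replicate 1 and diquat replicate 3, where his-66 was lowest, his-58 had its highest counts, 206 and 178. his-48 and his-62 did not peak in both of these libraries. Sums over rows with 1 protein are given beside the single copies.

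**Figure D1:**
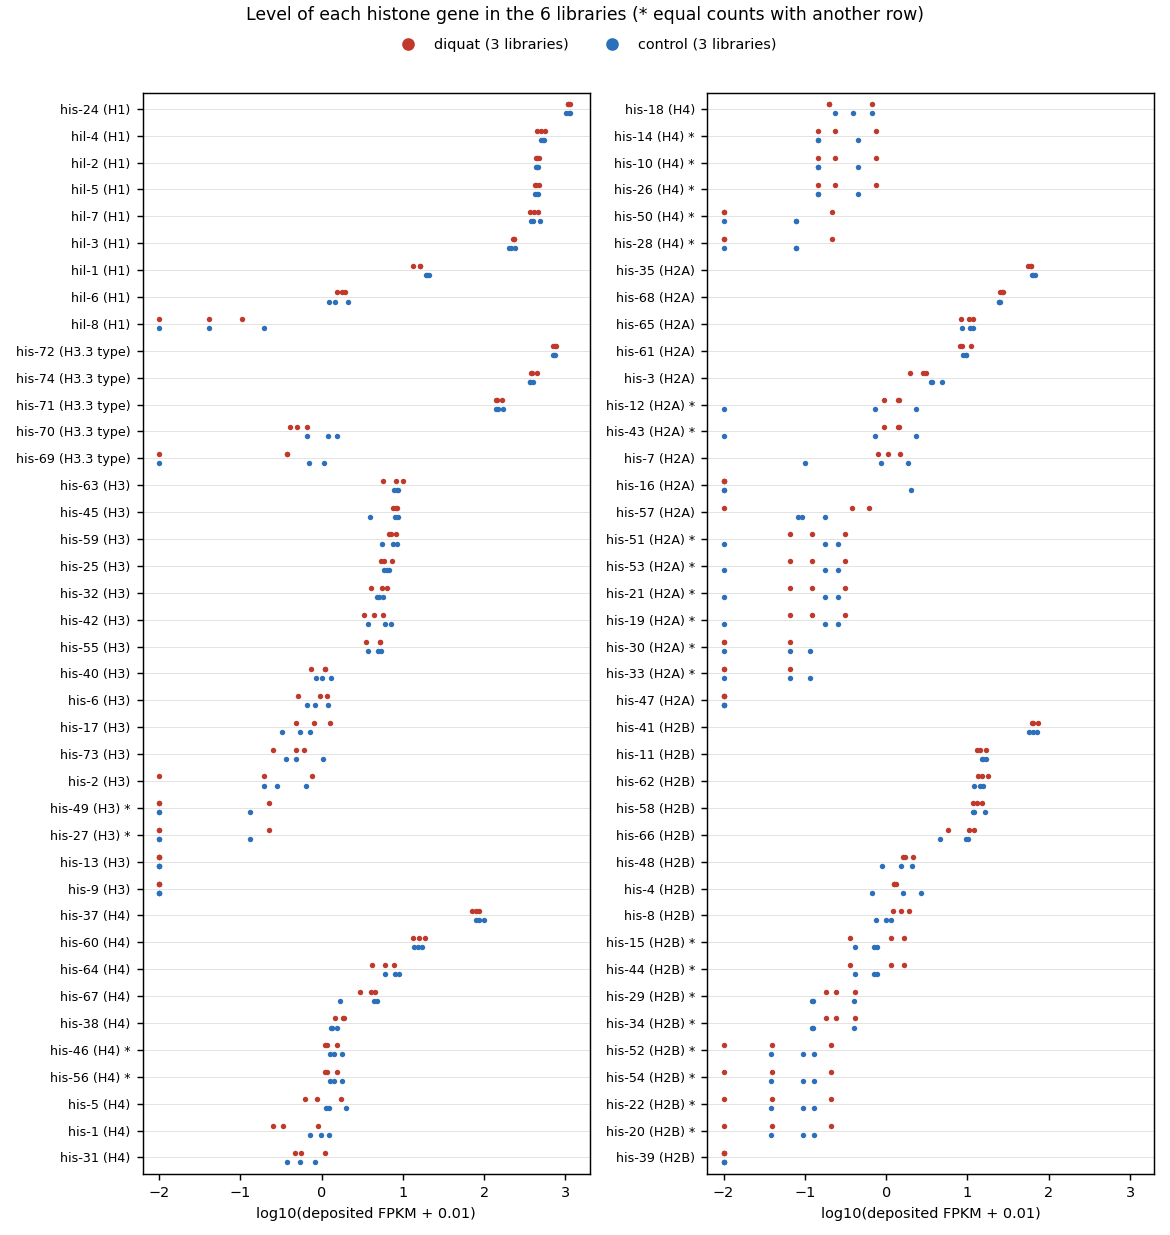
Deposited FPKM of the 80 histone genes on a log10 axis after adding 0.01, 1 row per gene and 1 point per library, by class and level, with an asterisk on the 25 genes that share their counts with another row. The linker and H3.3-type genes hold the highest levels, led by his-24, and the points of both groups lie over each other in nearly every row.

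The most abundant histone messenger in these oligo(dT)-selected libraries was that of his-24, the major linker histone H1.1, which acts in germline chromatin silencing. Its deposited level was 1077, 1154 and 1074 FPKM with diquat, against 1127, 1099 and 1029 FPKM in controls, and by mean FPKM it ranked 134 among all 20473 genes. Next came the H3.3 gene his-72 at rank 186, then hil-4, hil-2, hil-5 and hil-7 at ranks 254, 277, 281 and 298, and the H3.3-type gene his-74 at rank 314. The range of hil-4 over the libraries overlaps in FPKM with those of hil-2, hil-5 and hil-7. Within every library, however, hil-4 was above hil-2 and hil-5. In diquat replicate 3 hil-7 (457 FPKM) was above hil-4 (451 FPKM). The range of his-74 overlaps with those of hil-2, hil-5 and hil-7, and the order among these genes changed between libraries. The most abundant core histone outside the H3.3 type was the H4 gene his-37 at rank 1269, with 85.8, 70.1 and 79.8 FPKM in diquat libraries, against 100.7, 79.3 and 87.2 FPKM in controls. H1 genes held 65.2% ± 2.3 of the summed histone FPKM with diquat and 65.4% ± 0.26 in controls (SD, n = 3 each). The H3.3 type held 26.6% ± 1.7 with diquat and 26.1% ± 0.18 in controls. The 62 genes of H2A, H2B, H3 and H4 with no annotated intron held 4.01% ± 0.22 with diquat and 3.99% ± 0.031 in controls. In all 3 shares the diquat libraries spread more widely, around a mean close to that of the controls. The shares are parts of 1 total, so they do not vary independently, and the spread was not tested. The summed FPKM of all 80 genes spread less with diquat, 4851 ± 86, than in controls, 4829 ± 254 (SD, n = 3 each). Ranks and shares are of RNA captured on oligo(dT) beads, where messengers without a poly(A) tail can be missed.

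Levels differed with exon structure. In the WBcel235 annotation, 16 histone genes have more than 1 exon block and 64 have 1. The 12 genes with a mean count of at least 500 all had more than 1 block. The median deposited level over the 6 libraries was 188 FPKM for the genes with several blocks and 0.825 FPKM for those with 1, and the highest gene with 1 block was the H2A gene his-68 at 25.5 FPKM. The other 4 genes with several blocks, hil-8, the H2A gene his-57, hil-6 and hil-1, stood at 0.0575, 0.216, 1.67 and 17.6 FPKM, below his-68. All 64 genes with 1 block have an annotated length that is a multiple of 3, from 141 to 411 bases, as in gene models that hold coding sequence only. 9 of the 16 with several blocks have such a length. FPKM values of the 2 kinds therefore rest on unlike gene models, and no test was made between them. Capture on oligo(dT) beads can also differ between the 2 kinds and was not measured.

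**Figure D2:**
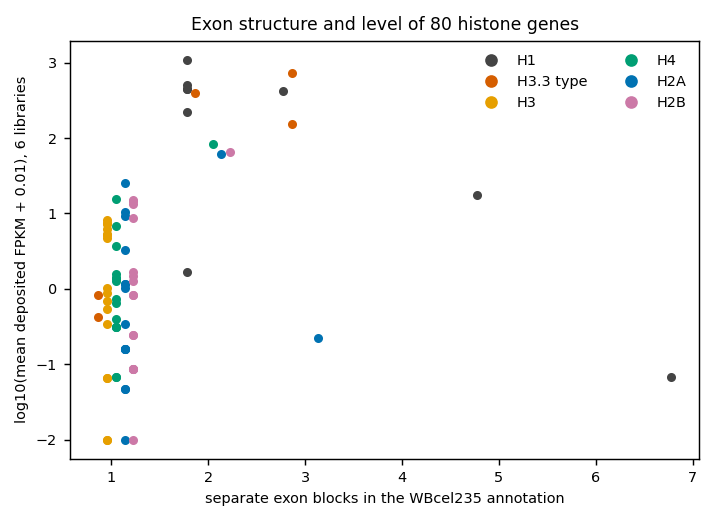
Mean deposited FPKM over the 6 libraries (log10 after adding 0.01) against the number of separate exon blocks for the 80 histone genes, coloured by class and shifted sideways by class. The 64 genes with 1 block reach at most 25.5 FPKM, and every gene above that level has 2 or 3 blocks.

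Linker histone genes did not pass the test in either direction. Of 8 tested, edgeR called 0, where it called 0.913% of all tested genes lower and 0.0% higher. The major gene his-24 had 971, 1137 and 902 CPM with diquat, against 1034, 1100 and 907 CPM in controls. Both groups have their highest value in replicate 2 and their lowest in replicate 3, and the groups overlap. The log2 fold change of his-24 was -0.01, with a 95% interval of -0.30 to 0.27. This interval runs from a fold of 0.813 to a fold of 1.21. hil-4 averaged 485 ± 89 CPM with diquat and 516 ± 44 CPM in controls, and hil-5 382 ± 56 CPM with diquat and 390 ± 35 CPM in controls (SD, n = 3 each). hil-2 averaged 342 ± 39 CPM with diquat and 348 ± 27 CPM in controls, hil-7 218 ± 23 CPM with diquat and 228 ± 27 CPM in controls, and hil-3 201 ± 20 CPM with diquat and 194 ± 22 CPM in controls. All 5 overlapped between groups. hil-6 was near 1 CPM in every library, and hil-8, with 0, 3 and 1 counts in diquat libraries, against 0, 1 and 6 counts in controls, was too low to test.

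hil-1, a linker histone-like gene on chromosome V (14949777 to 14952799, plus strand, 5 exon blocks), was the one linker gene whose groups did not overlap. It had 14.6, 13.1 and 13.3 CPM with diquat, against 18.8, 18.8 and 17.2 CPM in controls. Every diquat library lies below every control library. The log2 fold change was -0.42 with a standard error of 0.14, an unadjusted p of 0.0101 and an adjusted p of 0.408 by edgeR, so it did not pass. Blocking on the replicate number gave an adjusted p of 0.0126 by edgeR at the same fold change, in a fit that called 4.0% of all tested genes lower and 4.51% higher. Across all alternatives run its log2 fold change lay between -0.46 and -0.34. Its share of linker FPKM was 0.533%, 0.406% and 0.520% with diquat, against 0.621%, 0.608% and 0.657% in controls. Body wall muscle markers had 0 of 6 called without the block and 4 of 6 called lower with it (unc-54, unc-15, unc-27 and tnt-2). Their summed level ran from 2863 to 4103 CPM with diquat and from 3703 to 4289 CPM in controls, and its part in the hil-1 difference was not tested.

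The H3.3-type genes kept the same order in both groups. his-72, which encodes an H3.3 replacement histone, had 479, 476 and 436 CPM with diquat, against 479, 499 and 434 CPM in controls, a log2 fold change of -0.02 (95% interval -0.27 to 0.22). his-74 had 256, 235.2 and 205 CPM with diquat, against 234, 234 and 204 CPM in controls, a log2 fold change of 0.05 (95% interval -0.20 to 0.31). his-71, which also encodes H3.3, averaged 87.4 ± 9.8 CPM with diquat and 92.5 ± 11 CPM in controls (SD, n = 3 each). edgeR called 0 of the 3 with or without the replicate block, each had an unadjusted p over 0.05, and all overlap between groups. With the block and a correction for the trend with gene length together, his-74 was called higher (log2 fold change 0.17, adjusted p 0.0464). Among the 21 genes annotated as H3 or H3.3 type, the H3.3 type held 96.4%, 96.5% and 96.4% of FPKM with diquat, against 96.2%, 96.3% and 96.5% in controls. his-69 and his-70, H3.3-type neighbours without introns on chromosome III, were too low to test. his-70 had 8, 5 and 6 counts with diquat, against 20, 15 and 8 counts in controls, and his-69 had 0, 4 and 4 counts with diquat, against 8, 12 and 0 counts in controls. The control range reaches down to the diquat range in both.

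Most of the H2A, H2B and H4 signal per length came from 3 neighbours on chromosome V (9544659 to 9547607), the H2A gene his-35 (minus strand), the H2B gene his-41 (plus) and the H4 gene his-37 (plus). Each has 2 exon blocks. his-35 held 52.1%, 52.5% and 53.6% of all H2A FPKM with diquat, against 55.8%, 53.9% and 55.1% in controls. These shares did not overlap, but they were not tested, and no rate of such splits over all genes was computed. his-41 held 52.6% ± 1.3 of H2B FPKM with diquat and 52.7% ± 2.1 in controls, and his-37 held 69.9% ± 3.3 of H4 FPKM with diquat and 71.7% ± 2.0 in controls (SD, n = 3 each). The CPM of his-35 was 34.2, 38.6 and 29.3 with diquat, against 39.1, 39.0 and 34.5 in controls, and the groups overlap. his-41 averaged 36.8 ± 3.9 CPM with diquat and 36.3 ± 5.0 CPM in controls (SD, n = 3 each). his-37 had 37.96, 33.9 and 32.9 CPM with diquat, against 45.4, 39.0 and 37.8 CPM in controls. Its log2 fold change was -0.22 (95% interval -0.49 to 0.05), and diquat replicate 1 lies just above control replicate 3. None of the 3 passed edgeR's test, the lowest p being that of his-37, 0.105 unadjusted and 0.819 adjusted. edgeR with the replicate block gave his-37 a p of 0.0113 and an adjusted p of 0.0919, which did not pass. With the length trend removed its log2 fold change was 0.0096.

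**Figure D3:**
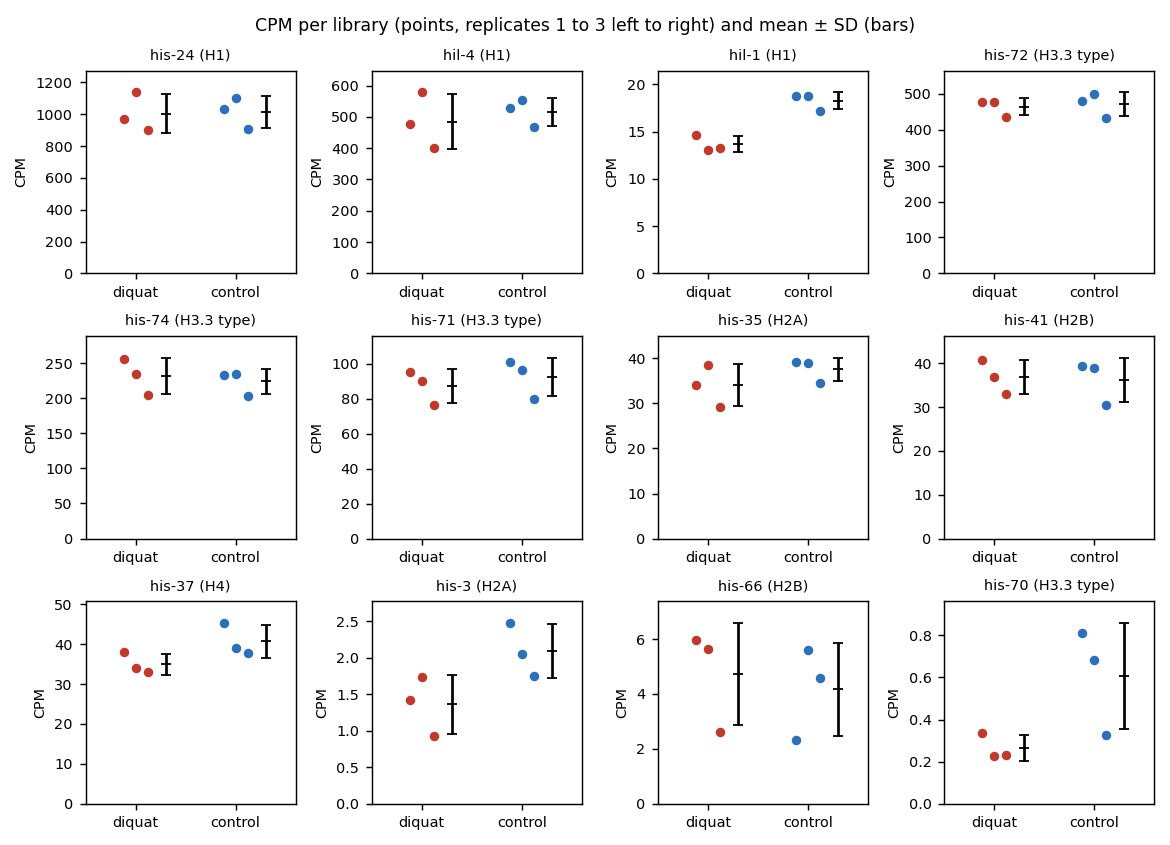
CPM of 12 histone genes in each library, diquat left and control right, replicates 1 to 3 from left to right within a group, with the mean and SD beside the points. hil-1 and his-3 are the panels in which the groups do not overlap, and his-66 shows 1 low library in each group.

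The 62 core genes with 1 exon block were low. Together they had 98.7 ± 8.5 CPM with diquat and 100.5 ± 9.5 CPM in controls (SD, n = 3 each). Sums over rows annotated with 1 protein also take in some genes with several blocks. The 16 H2A rows, his-57 with 3 blocks included, had 680, 675 and 604 counts with diquat, against 699, 662 and 637 counts in controls, a log2 ratio of -0.03 after scaling. The 14 H3 rows had 658, 580 and 622 counts with diquat, against 692, 627 and 566 counts in controls, a log2 ratio of -0.03 as well. The 16 H4 rows, his-37 included, had 1222, 1081 and 1254 counts with diquat, against 1552, 1223 and 1250 counts in controls, a log2 ratio of -0.18. Without his-37, which has 2 blocks, the H4 ratio was -0.098. The 3 H2B proteins had log2 ratios of -0.08 (5 rows), 0.08 (4 rows) and 0.07 (6 rows). All these sums overlap between groups. By class, the summed level was 2646 ± 333 CPM with diquat and 2709 ± 240 CPM in controls for H1, and 784 ± 58 CPM with diquat and 788 ± 62 CPM in controls for the H3.3 type. All 80 genes together had 3635 ± 382 CPM with diquat and 3712 ± 320 CPM in controls (SD, n = 3 each), and no class sum separated the groups.

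Of the 80 genes, 67 lay within 20 kb of another histone gene, in 13 groups, and 13 lay alone. The layout was that of divergent pairs. There were 31 pairs of neighbours that start back to back, 16 of H2A with H2B, 14 of H3 with H4 and 1 of H2A with H4, the pair his-68 and his-67. The annotated genes of a pair were 227 to 368 bases apart, with a median gap of 258 bases. Members of a pair could differ widely in count. Over the 6 libraries his-58 had a mean count of 159.7, against 2.67 for its H2A partner his-57. his-11 had a mean count of 201.2 and its H2A partner his-12 one of 10. The reads of his-12 cannot be told from those of his-43, so its value is not that of 1 copy. In the pair of his-60 (H4) and his-59 (H3) the means were 173.3 and 127.8 counts, and their log2 fold changes were both -0.01.

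The lowest fold changes among tested genes, those of his-1 and his-3, came from 1 small group. The 4 neighbours his-4, his-3, his-2 and his-1 on chromosome V (16040144 to 16042831) summed to 60, 66 and 44 counts with diquat, against 118, 77 and 65 counts in controls. Scaled to CPM, these sums were 2.52, 3.01 and 1.71 with diquat, against 4.79, 3.51 and 2.64 in controls, so diquat replicate 2 lies above control replicate 3. The H2A gene his-3 had 34, 38 and 24 counts with diquat, against 61, 45 and 43 counts in controls, and its groups did not overlap. Its log2 fold change was -0.62 (95% interval -1.29 to 0.03), and edgeR's adjusted p was 0.819. The H4 gene his-1 had the lowest log2 fold change of all tested histone genes, -1.02, with an interval of -2.27 to 0.20. The highest was 0.64 for the H2B gene his-8, which had 25, 16 and 20 counts with diquat, against 16, 10 and 13 counts in controls. Its CPM did not overlap between groups, and its interval ran from -0.22 to 1.496.

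**Figure D4:**
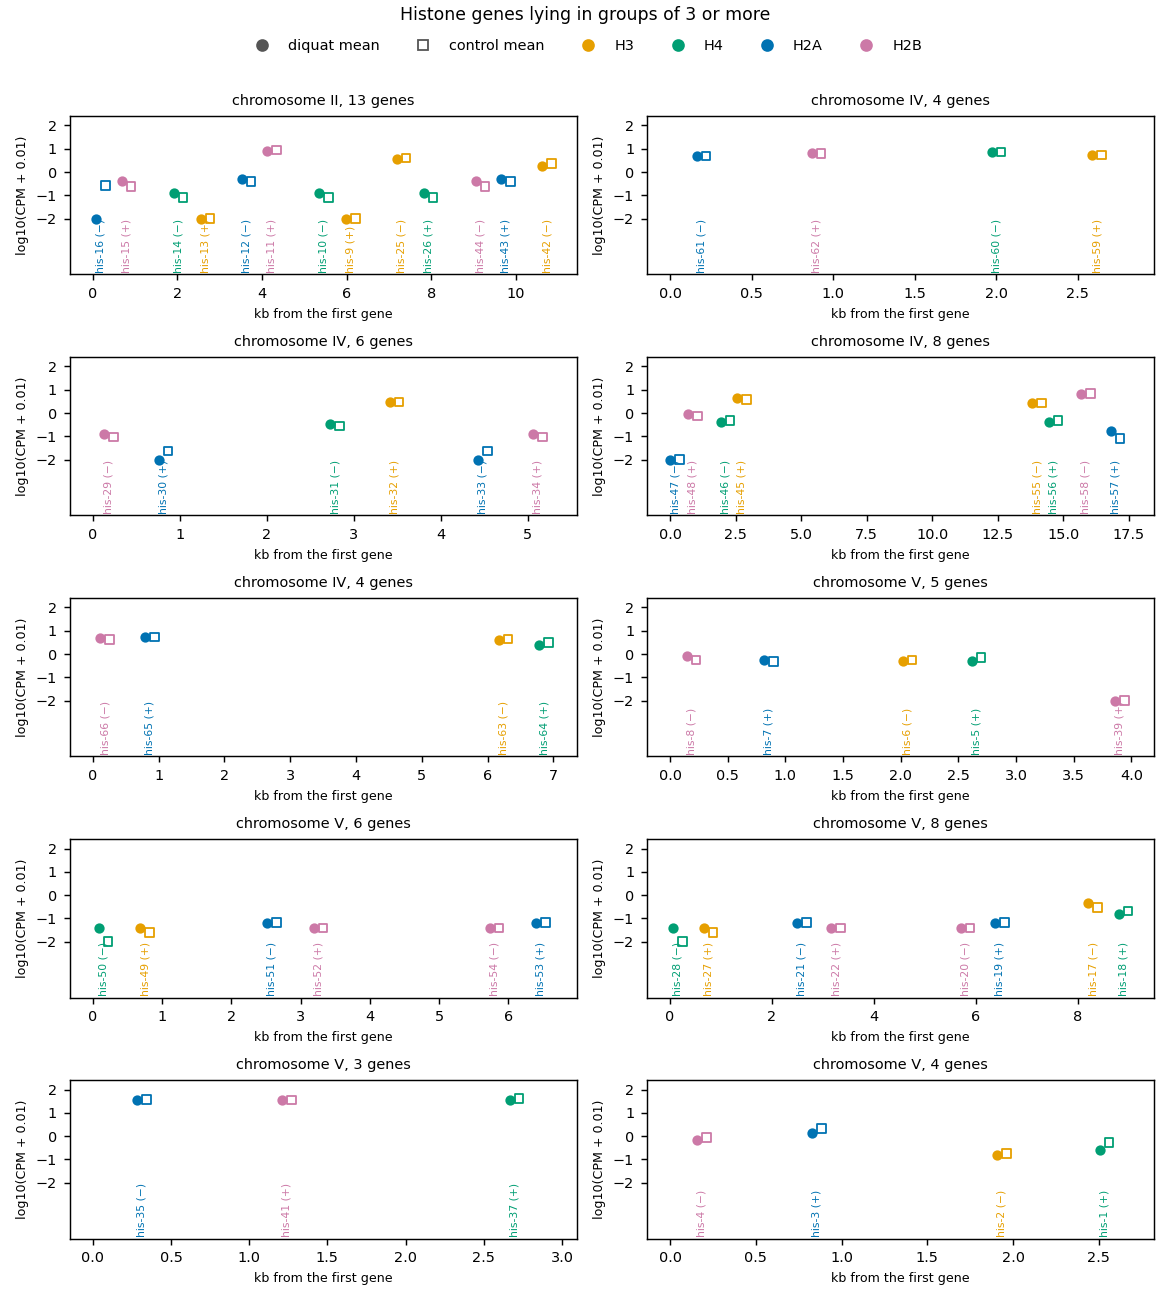
Mean CPM (log10 after adding 0.01) of the histone genes in the 10 groups of 3 or more neighbours, against distance in kb from the first gene of the group, diquat as filled circles and control as open squares, with the strand after each name. his-35, his-41 and his-37 form the one group in which every gene is above 30 CPM.

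Over all histone genes, 43 of the 80 passed edgeR's filter on low counts and 37 did not. 0 of the 43 were called lower with diquat, where 0.913% of all tested genes were, and 0 were called higher, where 0.0% were. At an unadjusted p under 0.05 edgeR had 1 lower, hil-1, against 4.68% of all tested genes, and 0 higher, against 1.54%. DESeq2 called 0 of the 62 histone genes to which it gave an adjusted p, against 0.977% of all genes lower and 0.0125% higher. In the authors' deposited table the lowest false discovery rate of the 80 was 0.551, so 0 were under 0.05, and 0.762% of all its genes were under that limit. Its p-values for histone genes with counts equal those of DESeq2 here, so it is not a separate result. The replicate block in edgeR added hil-1 as 1 gene lower. Removing the trend with gene length within the block left hil-1 lower and added his-74 higher, where 5.25% of all tested genes were lower and 4.78% higher. The groups did not overlap in 3 of 43, hil-1 and his-3 below and his-8 above, where 6.68% of all tested genes lay below and 4.07% above.

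The median log2 fold change was -0.03 over the 43 tested genes and 0.01 over all tested genes, with 15 histone genes above 0 and 28 below, where 52.7% of all tested genes lay above 0. With each library's trend with gene length removed, the median was 0.16 over the histone genes and 0.03 over all tested genes, and 35 of the 43 lay above 0. The share of all tested genes above 0 was not computed for that fit. Its correction rests on annotated lengths, which for the genes with 1 block are as in models of coding sequence only. The sign of the histone median thus depended on the setting. It was also above 0 with library totals only (0.0045), without control replicate 2 (0.028) and without diquat replicate 3 (0.022). In the other fits without the length correction it was below 0. The median of each class lay between -0.22 (7 H4 genes) and 0.07 (8 H2B genes). The data bound the size of a difference unevenly. For 17 of the 43 the 95% interval lay within 0.5 of 0 on the log2 scale, for 31 it lay within 1, a 2-fold change, and for the other 12 it reached past a 2-fold change in at least 1 direction.

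**Figure D5:**
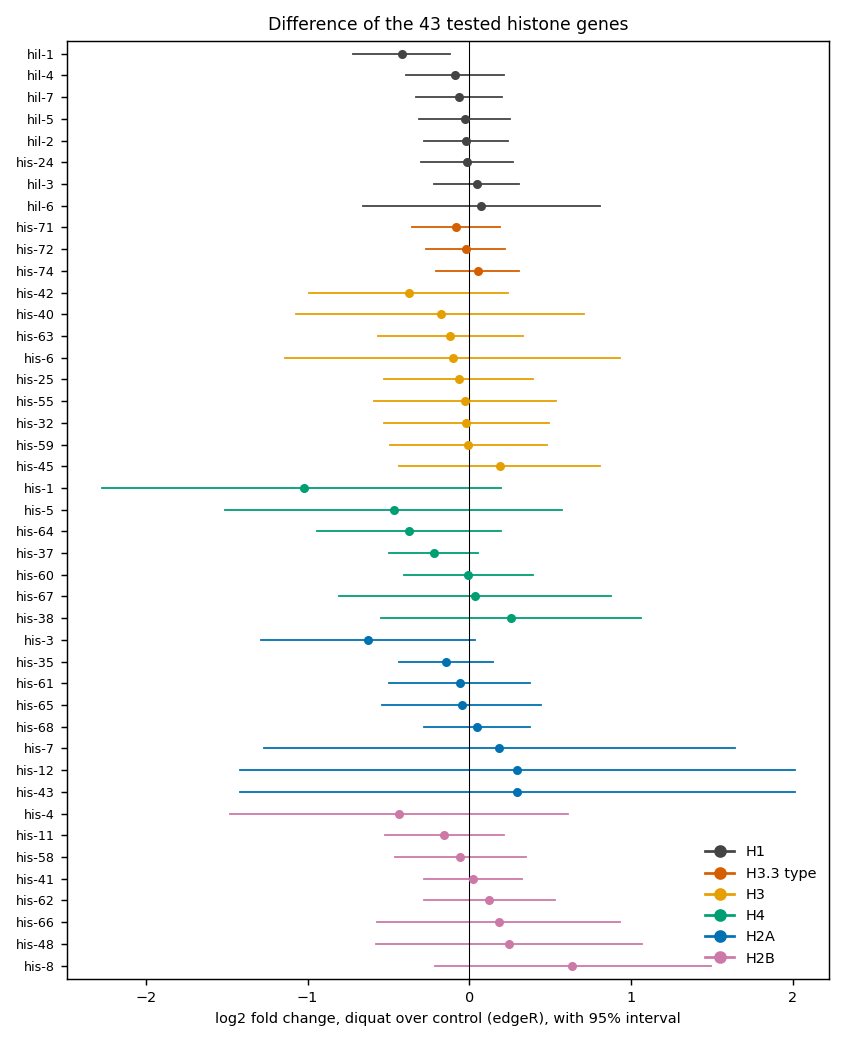
Log2 fold change of the 43 tested histone genes, diquat over control, with 95% intervals from edgeR, grouped and coloured by class. The intervals of the 3 H3.3-type genes lie between -0.35 and 0.31, those of low core genes such as his-1 are wide, and the interval of hil-1 is the one that leaves out 0.

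Genes that work with histones were read from lists. DESeq2 called 0 genes of every list but the sperm chromatin one, and outside that list edgeR at an unadjusted p under 0.05 had 1 replication gene and 1 gene of the acetylation list, both higher. The variants outside the naming rule gave 0 calls of 3. htz-1, which encodes H2A.Z, averaged 842 ± 49 CPM with diquat and 820 ± 59 CPM in controls. The centromeric H3 hcp-3 averaged 99.1 ± 12 CPM with diquat and 94.7 ± 11 CPM in controls, and its relative cpar-1 50.3 ± 4.4 CPM with diquat and 50.5 ± 5.9 CPM in controls (SD, n = 3 each). cdl-1, the stem-loop binding protein of histone messengers, and csr-1, an Argonaute reported to act in their maturation, both had a log2 fold change of 0.04, and 0 of 2 passed.

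Of 15 histone chaperone and assembly genes 0 passed in either direction without the block, with a median log2 fold change of 0.12. With the block 5 were called higher, the CAF-1 subunit gene chaf-1, the H3-H4 chaperone gene nasp-1 and the FACT genes spt-16, hmg-3 and hmg-4. Of 25 DNA replication genes 24 were tested and 0 passed, with a median of 0.07, and the block called 4 higher, cdc-6, orc-1, rpa-1 and lig-1. The histone methyltransferase and demethylase list had 0 of 23 without the block and 3 higher with it (rbbp-5, jmjd-3.1 and rbr-2), with a median of 0.16. The acetyltransferase and deacetylase list had 0 of 14 without the block and 4 higher with it (mys-4, pcaf-1, hda-2 and sir-2.1), with a median of 0.13. The block called 4.51% of all tested genes higher. Of 5 sperm chromatin genes edgeR called 2 lower, with a median over the 5 of -1.32, and DESeq2 called 3 lower. All 5 were lower at an unadjusted edgeR p under 0.05. The genes that edgeR called were spch-2, with 2.77, 1.69 and 1.79 CPM in diquat libraries, against 5.52, 5.20 and 5.49 CPM in controls (log2 fold change -1.37, adjusted p 0.0131), and spch-3, with 7.17, 9.35 and 5.67 CPM in diquat libraries, against 17.2, 20.8 and 17.2 CPM in controls (log2 fold change -1.32, adjusted p 0.00532). They encode basic proteins that package sperm chromatin and are themselves among the 42 sperm markers. The smz-1, smz-2 and spch-1 genes had log2 fold changes of -0.84, -1.51 and -1.11 without the block, and edgeR called them lower when the block was used.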

How the data were processed

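RNA was selected on oligo(dT) beads, per the labels' protocols. Tools named in the submitters' processing notes are HISAT2, RSEM, StringTie 1.3.1 and fastp 0.18.0, with the build WBcel235. The strand setting and the placing of reads that fit several genes are not given in the sources used here, so reads of overlapping genes and near-identical copies cannot be told apart. The authors deposited estimated counts per gene as whole numbers, and FPKM values. The deposited table also holds the authors' log2 fold change and, per the file headers, a p-value and false discovery rate. Gene positions and exon blocks came from Ensembl release 115 on WBcel235, where all 80 histone IDs matched.

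The main test was edgeR 4.0.16 in R 4.3.3 (TMM scaling, default filter on low counts, quasi-likelihood test with robust dispersion, Benjamini-Hochberg over all 13252 genes), with group as the one term and 3 libraries against 3. CPM are TMM-scaled. Summed CPM got no test. Counting floors cover counting error only. The fit was tested on simulated counts with 200 changed genes. DESeq2 1.42.0 was an alternative, as were library totals, RLE scaling, no filter, a replicate block, a length-trend offset (loess span 0.3), merged equal rows and leaving out each library.

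Same-numbered libraries deviated together (correlations 0.155, 0.200 and 0.459 for numbers 1, 2 and 3), so the fit with the replicate block is given where it changes a call, while the main test stayed unpaired. By this measure control 1 went slightly more with diquat 2 (0.208) than with diquat 1, so these values do not settle whether the numbers mark pairs. Libraries within a group differed beyond counting error (chi-square per degree of freedom 15.5 to 30.1). The histone genes and all lists were chosen with earlier results of these data known. Genes were named by a rule (all linker and H3.3-type genes, called genes, the highest 2 per class and 4 relatives). Genes in equal-count or mirrored rows, his-3, his-8 and his-1 were named after their values were seen, as were the pairs and groups of neighbours.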

Additional observations from a re-analysis of the deposited data

How the results depend on the processing

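The fits with the replicate block moved the counts most, and more so with the length offset. All genes called lower were 121 in the fit by group, 530 with the replicate block and 684 with block and length offset together. Genes called higher were 0 by group, 2 with DESeq2, 2 with no filter, 2 with the length offset, 598 with the replicate block and 623 with block and length offset. Leaving out each library gave 27 to 116 genes lower and 0 to 1 higher. Of the histone genes, 1 was lower (hil-1) under the replicate block, and 1 lower (hil-1) and 1 higher (his-74) under block and length offset. The cause was not tested. No other histone gene was called under an alternative. Class sums were recomputed only with library totals, with RLE scaling, without each library and without the gene with the highest mean count. All 81 moved by less than the spread between libraries. They were not recomputed with the length offset or the block, so they say nothing about these 2 settings. Of 294 recomputed log2 fold changes of 21 named genes, 230 kept direction and side of the threshold, 3 newly passed it and 61 changed sign.

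The sign changes included genes near 0 and, with the length offset, his-37, his-11 and his-35, whose values by group were -0.22, -0.15 and -0.14. With library totals only, the log2 fold changes were 0.022 (his-24), 0.014 (hil-2), 0.0045 (hil-5), 0.019 (his-72), 0.039 (his-60) and 0.033 (cpar-1). With DESeq2 they were 0.0032 (his-60) and 0.0038 (cpar-1). With the length offset they were 0.065 (his-24), 0.070 (hil-2), 0.053 (hil-5), 0.065 (hil-7), 0.030 (his-35), 0.043 (his-71), 0.087 (his-72), 0.12 (his-11), 0.0096 (his-37), 0.32 (his-60) and 0.076 (cpar-1). Block and length offset together gave 0.060 (his-24), 0.065 (hil-2), 0.045 (hil-5), 0.063 (hil-7), 0.025 (his-35), 0.038 (his-71), 0.086 (his-72), 0.12 (his-11), 0.0055 (his-37), 0.31 (his-60) and 0.076 (cpar-1). Leaving out each library in turn spanned -0.11 to 0.048 for his-24, -0.12 to 0.030 for hil-2, -0.027 to 0.10 for hil-3, -0.23 to 0.018 for hil-4, -0.15 to 0.052 for hil-5, -0.041 to 0.32 for hil-6 and -0.13 to 0.034 for hil-7. It spanned -0.059 to 0.022 for his-72, -0.015 to 0.12 for his-74, -0.037 to 0.12 for his-68, -0.072 to 0.087 for his-41, -0.10 to 0.12 for his-60, -0.0025 to 0.074 for htz-1, -0.080 to 0.067 for cpar-1 and -0.018 to 0.075 for cdl-1.

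Low counts limit the intronless core genes, most of which had a mean count under 100, and 25 genes share their counts with another row. DESeq2 gave no adjusted p to 18 of the 80 genes, which stay out of its counts.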
